A study of Homo sapiens with 6 samples.

Results

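The SRC family kinases and their inhibitor CSK were examined in RNA sequencing of DCIS.COM cells, an established line of basal-like ductal carcinoma in situ (DCIS) of the breast. The members were taken by gene name, SRC, YES1, FYN, LYN, LCK, FGR, BLK, FRK and CSK, which are 9 of the 58676 genes in the deposited expression table. The family was picked from results of the same BCL9 KD against NS control contrast, so the members' fold changes and p-values in that contrast are given as a description of these samples, and nothing is supported with them. The 3 NS control samples carried a non-silencing construct in the lentiviral vector PLKO.1, and the 3 BCL9 KD samples carried a PLKO.1 vector expressing a short hairpin RNA (shRNA) against BCL9, a co-activator of β-catenin. Each sample came from its own flask of control or knockdown cells, and 1 hairpin was used, so that an effect of this hairpin other than on BCL9 cannot be told apart from the loss of BCL9. The comparison addressed which genes changed expression when BCL9 was knocked down. The targeted gene, BCL9, was at 6.25, 6.24 and 5.34 FPKM in the NS control samples and at 2.86, 2.78 and 2.59 FPKM in the BCL9 KD samples. Values of single samples are listed in the order of replicates 1 to 3 throughout. FPKM is the number of reads on a gene, scaled by the length of the gene and by the number of reads counted in the sample.

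SRC family kinases are non-receptor tyrosine kinases anchored to the inner face of the plasma membrane by a lipid tail. They pass signals from integrins, growth factor receptors and immune receptors to the cytoskeleton, to adhesion sites and to transcription factors. CSK phosphorylates a tyrosine in their C-terminal tail, which folds the kinase into its inactive form, and tyrosine phosphatases remove that phosphate. SRC, YES1 and FYN are made in most tissues, LYN in blood cells and many epithelia, and LCK, FGR and BLK mainly in blood cells, while FRK is a more distant relative found in epithelial cells. The activity of these kinases is set largely by phosphorylation, which RNA sequencing does not measure.

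Between 15222452 and 26949026 reads were counted per sample, and the 3 replicates of NS control were not equal in base composition. Over the fifth of genes with the lowest GC content, the median deviation from the gene's mean was −0.44 on the log2 scale in NS control replicate 1 and between −0.05 and 0.16 in the other 5 samples. For the tested members and the called genes around them, fold changes are also given without this sample and after a GC correction that fits each sample's log2 values to the GC content of the transcripts. The 6 epithelial marker genes summed to 746.1 to 835.0 FPKM in NS control and 728.8 to 806.0 FPKM in BCL9 KD samples. Of these, KRT18 (a mean of 177.3 and 149.7 FPKM) and CDH1 (49.7 and 44.3) were lower and TP63 (14.6 and 17.6) was higher in every BCL9 KD sample than in every NS control sample, with limma adjusted p of 0.207, 0.173 and 0.180. Of all genes tested, 16.4% were lower and 17.8% higher in this way. Of the 6 blood cell markers, 5 had a mean under 0.5 FPKM, among them PTPRC, which did not exceed 0.00590 FPKM in any sample. The whole blood cell list summed to 0.460 to 0.661 FPKM in NS control and to 0.880 to 1.53 FPKM in BCL9 KD, most of it CD14. The endothelial list summed to 1.75 to 2.34 and to 3.15 to 3.95 FPKM, nearly all of it PECAM1 (log2 fold change 0.61, limma adjusted p = 0.0477), with CDH5 and VWF at no more than 0.0534 FPKM. The fibroblast list summed to 0.687 to 0.711 FPKM in NS control and to 0.726 to 0.899 FPKM in BCL9 KD samples, most of it COL1A1. The part of these genes in the results was not tested.

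The promoters of the members differed widely in base composition, and the windows of YES1, FYN and FRK are shown because these 3 genes were at high, very low and low mRNA levels. RefSeq (GRCh38.p14) gave 11 windows for 6 of the members, YES1, FYN, FRK, FGR, LCK and CSK, each from 250 bases before to 50 after a transcription start. The promoter table used here had no entry for SRC, LYN and BLK. The bases before the start are printed 5′ to 3′, on the minus strand in each case, with GC boxes (GGGCGG on either strand) in capitals. They lie at chr18:812243-812492 for YES1, chr6:111873453-111873702 for FYN and chr6:116060892-116061141 for FRK.
YES1: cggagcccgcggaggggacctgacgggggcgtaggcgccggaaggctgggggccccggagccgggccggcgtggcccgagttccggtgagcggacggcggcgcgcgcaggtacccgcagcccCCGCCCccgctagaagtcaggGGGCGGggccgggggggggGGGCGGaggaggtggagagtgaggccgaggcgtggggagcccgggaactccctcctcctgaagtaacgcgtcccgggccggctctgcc
FYN: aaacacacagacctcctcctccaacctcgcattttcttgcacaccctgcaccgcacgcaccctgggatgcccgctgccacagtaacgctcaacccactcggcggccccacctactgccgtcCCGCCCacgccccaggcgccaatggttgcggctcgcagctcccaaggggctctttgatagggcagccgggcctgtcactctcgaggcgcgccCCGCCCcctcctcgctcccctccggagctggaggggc
FRK: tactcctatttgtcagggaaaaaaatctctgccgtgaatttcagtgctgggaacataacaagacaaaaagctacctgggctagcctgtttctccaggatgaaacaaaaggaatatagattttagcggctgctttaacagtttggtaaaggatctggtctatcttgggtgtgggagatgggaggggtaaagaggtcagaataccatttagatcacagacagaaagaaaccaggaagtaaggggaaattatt
The printed YES1 stretch had 79.2% GC, 32 CpG dinucleotides and 3 GC boxes, and that of FYN had 68.8% GC, 20 CpG and 2 GC boxes. FRK stood at the other end, with 41.6% GC, 2 CpG and 0 GC boxes. FYN had 4 windows in the table, of which the one nearest the deposited gene start is printed, and the others had, over their 300 bases, 55, 8 and 2 CpG, with 8, 0 and 0 GC boxes. The mRNAs of YES1 and FYN were at 17.6 and 0.273 FPKM in NS control cells. Over the whole windows of 300 bases, YES1 had 39 CpG and the printed FYN window 26. The window of CSK, the member with the highest mRNA level, had 54.3% GC, 4 CpG and 0 GC boxes. Over all 35116 windows of the table, each of 300 bases, the median was 14 CpG and 58.7% GC, and 45.0% of windows held a GC box, against 5 of the 11 windows of the members. The letters TTCNNNGAA, the core to which STAT proteins bind and which reads the same on both strands, were found in 0 of the 11 windows and in 7.66% of all windows. A match or its absence describes these letters in these windows only.

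In NS control cells CSK had the highest level of the 9 genes, with 34.9 ± 3.92 FPKM (SD, n = 3), followed by YES1 with 17.6 ± 6.0, SRC with 10.5 ± 1.06, LYN with 8.34 ± 0.704, FRK with 1.86 ± 0.348 and FYN with 0.273 ± 0.00667. The replicate ranges of neighbours in this order did not overlap except for those of YES1 and SRC. In BCL9 KD cells the order was CSK with 38.4 ± 1.03, YES1 with 23.4 ± 1.55, LYN with 6.79 ± 0.456, SRC with 6.58 ± 0.0748, FRK with 1.99 ± 0.256 and FYN with 0.302 ± 0.0777 FPKM. Here LYN and SRC overlapped, and the other neighbours did not. SRC thus stood above LYN in each NS control sample, its mean 1.25 times that of LYN, and level with it in BCL9 KD cells. CSK and YES1 were above 91.9% and 82.8% of the 13745 genes tested in their mean NS control level, SRC and LYN above 71.9% and 66.4%, and FRK above 29.0%.

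**Figure D1:**
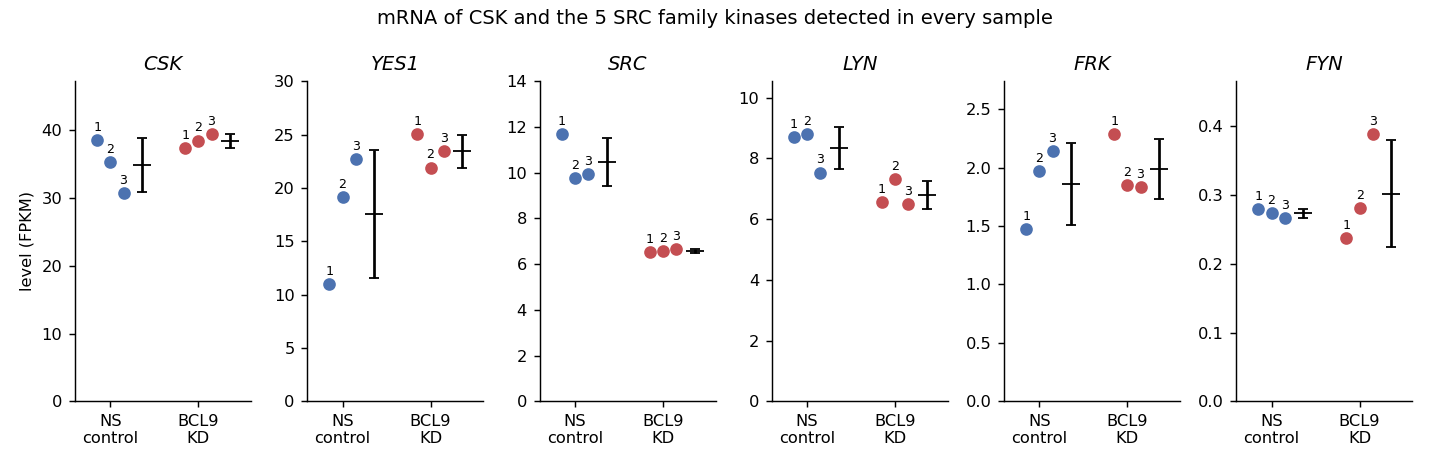
Level in FPKM (vertical axes, each starting at 0) of CSK and of the 5 SRC family kinases detected in every sample, for NS control (blue) and BCL9 KD (red), where numbers mark replicates and black bars give the mean ± SD of 3 samples. The 3 BCL9 KD samples of SRC sit between 6.52 and 6.66 FPKM, below the lowest NS control sample at 9.77, while NS control replicate 1 of YES1 sits at 10.96, away from the other 2.

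SRC, the founding member of the family and a kinase of focal adhesions and growth factor receptor signaling (chromosome 20, 37344685 to 37406050 on the plus strand of GRCh38), was at 11.7, 9.77 and 9.92 FPKM in the NS control samples and at 6.52, 6.56 and 6.66 FPKM in the BCL9 KD samples. Every BCL9 KD sample was below every NS control sample, as in 16.4% of all genes tested. These levels rest on 977 to 1714 reads in NS control and 675 to 1143 reads in BCL9 KD samples. The mean in BCL9 KD cells was 62.9% of that in NS control cells, with a log2 fold change of −0.63 (SE 0.0875, 95% interval −0.83 to −0.42, limma adjusted p = 0.0187) on the scale of log2(FPKM + 0.5). SRC was the 1 member that passed the adjusted threshold of 0.05, out of 5 members tested, whereas 5.87% of all 13745 genes tested passed it, 2.91% lower and 2.96% higher. Since the family was chosen with this contrast known, nothing is read from that count. After the GC correction the log2 fold change of SRC was −0.60 (limma adjusted p = 0.00575) and without NS control replicate 1 it was −0.55 (0.0176). The size of the decrease ranged from −0.67 to −0.55 over the fits that left out 1 sample, but the adjusted p passed the threshold in 3 of these 6 fits, with 0.0826 without NS control replicate 2, 0.118 without BCL9 KD replicate 2 and 0.124 without BCL9 KD replicate 3. It was 0.0508 with no filter on low values and 0.0826 with the replicate number as a block.

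LYN, which couples integrin, cytokine and immune receptors to downstream kinases, was at 8.71, 8.79 and 7.53 FPKM in the NS control samples and at 6.56, 7.31 and 6.49 FPKM in the BCL9 KD samples. All 3 BCL9 KD samples were below all 3 NS control samples. Non-overlap in this direction was found for 16.4% of the genes tested, and in the other direction for 17.8%. The log2 fold change was −0.28 (SE 0.0914, 95% interval −0.49 to −0.06 before adjustment), and it did not pass the threshold over all genes (limma adjusted p = 0.110). It was −0.31 after the GC correction (0.0821) and −0.25 without NS control replicate 1 (0.158). SRC and LYN were the 2 members without overlap, both lower in BCL9 KD cells.

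YES1, a close relative of SRC made in most epithelia (chromosome 18, 721588 to 812546, minus strand), was at 10.96, 19.1 and 22.7 FPKM in the NS control samples and at 25.0, 21.9 and 23.4 FPKM in the BCL9 KD samples. NS control replicate 1 was far below the other 5 samples, and NS control replicate 3 lay within the BCL9 KD range. The log2 fold change was 0.46 (SE 0.243, 95% interval −0.11 to 1.04, limma adjusted p = 0.260). It was 0.17 without NS control replicate 1 (adjusted p = 0.314) and 0.19 after the GC correction (0.246), but 0.55 without NS control replicate 2 and 0.67 without NS control replicate 3 (0.0876). The processed pseudogene YES1P1, which could share reads with YES1, did not exceed 0.0811 FPKM in any sample.

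FRK, a kinase of epithelial cells, was at 1.47, 1.97 and 2.14 FPKM in the NS control samples and at 2.28, 1.85 and 1.83 FPKM in the BCL9 KD samples. The groups overlapped, and both the highest and the lowest BCL9 KD sample lay above NS control replicate 1. The log2 fold change was 0.08 (SE 0.147, 95% interval −0.27 to 0.43, limma adjusted p = 0.741) and turned to −0.17 after the GC correction (0.281) and to −0.04 without NS control replicate 1. No direction was found for FRK.

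The other 4 kinases were low or undetected and were not tested, since their mean was under 0.5 FPKM. FYN, a kinase of adhesion and T cell signaling, was at 0.279, 0.273 and 0.266 FPKM in the NS control samples and at 0.237, 0.280 and 0.388 FPKM in the BCL9 KD samples, from 30 to 56 reads per sample. The BCL9 KD values of FYN lay on both sides of the NS control values. FGR, a kinase of myeloid cells, was read 2, 0 and 0 times in NS control and 3, 2 and 0 times in BCL9 KD samples, and no fold is given at this depth. LCK, the kinase of T cell receptor signaling, and BLK, its counterpart in B cells, had 0 reads in all 6 samples. A count of 0 allows up to 3 reads, which is 0.0333 to 0.0590 FPKM for LCK and 0.0232 to 0.0410 FPKM for BLK depending on the sample, and covers counting error only. Of the blood cell markers, PTPRC and MS4A1 were likewise at or near 0, while the myeloid markers CD14 and ITGAM were detected in every sample. CD14 was at 0.560, 0.288 and 0.418 FPKM in the NS control samples and at 1.38, 0.964 and 0.778 FPKM in the BCL9 KD samples, and ITGAM did not exceed 0.166 FPKM. Their part in the values of FGR was not tested.

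CSK (chromosome 15, 74782057 to 74803198, plus strand) was at 38.6, 35.3 and 30.7 FPKM in the NS control samples and at 37.4, 38.5 and 39.4 FPKM in the BCL9 KD samples. The groups overlapped through NS control replicate 1. The log2 fold change was 0.14 (SE 0.0925, 95% interval −0.08 to 0.36, limma adjusted p = 0.349). It was 0.17 after the GC correction (0.153) and 0.22 without NS control replicate 1 (0.136), but 0.06 without NS control replicate 3 (0.624). In a bulk sample a lower level in each cell and fewer cells that make the transcript cannot be told apart.

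**Figure D2:**
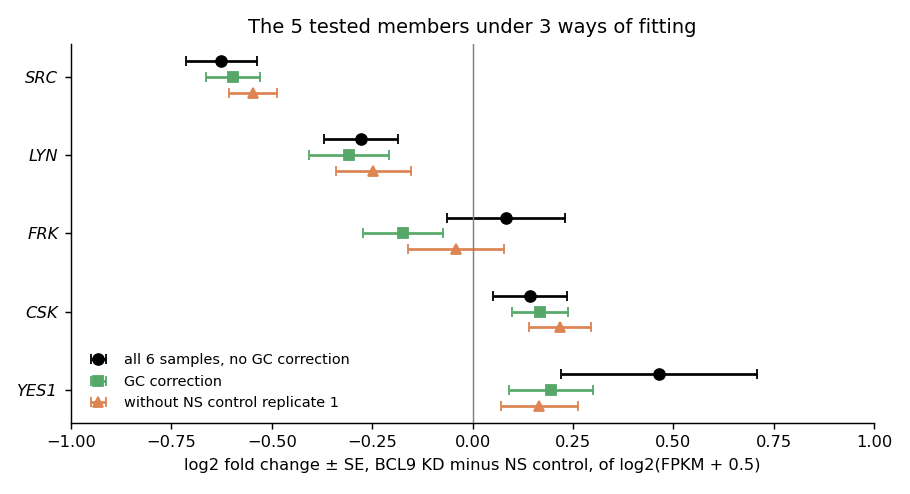
Log2 fold change ± SE of log2(FPKM + 0.5), BCL9 KD minus NS control, for the 5 tested members with all 6 samples (black), after the GC correction (green) and without NS control replicate 1 (orange). SRC stays between −0.63 and −0.55, YES1 moves from 0.46 to 0.19 and 0.17, and FRK moves from 0.08 to −0.17 and −0.04.

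The 2 AT-rich members, YES1 and FRK, were at their lowest in NS control replicate 1, the sample with the lowest level of low-GC genes. The transcripts of YES1 and FRK have 38.4% and 38.9% GC, which is above only 6.72% and 8.71% of the genes tested, whereas those of LYN have 45.8%, of SRC 59.3% and of CSK 61.1% GC. In NS control replicate 1, where low-GC genes were at −0.44, YES1 was at −0.83 and FRK at −0.29 from its mean over the 6 samples on the log2 scale. In the same sample LYN was at 0.20, SRC at 0.47 and CSK at 0.08. Among the other 5 samples, YES1 lay between −0.05 and 0.33. FRK did not follow the low-GC genes there, at 0.03 and 0.13 in NS control replicates 2 and 3 and at 0.21, −0.04 and −0.05 in the BCL9 KD samples. Low-GC genes were at −0.05 and 0.14 in NS control replicates 2 and 3 and between 0.09 and 0.16 in the BCL9 KD samples. SRC, with a GC content above that of 84.5% of the genes tested, was at 0.22 and 0.25 in NS control replicates 2 and 3. In the BCL9 KD samples SRC was between −0.33 and −0.30. The median deviation of the fifth of genes highest in GC was 0.10, 0.02 and −0.05 in the NS control samples. It was −0.03, −0.02 and −0.004 in the BCL9 KD samples. The part of base composition in the difference of SRC was not tested beyond the GC correction.

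**Figure D3:**
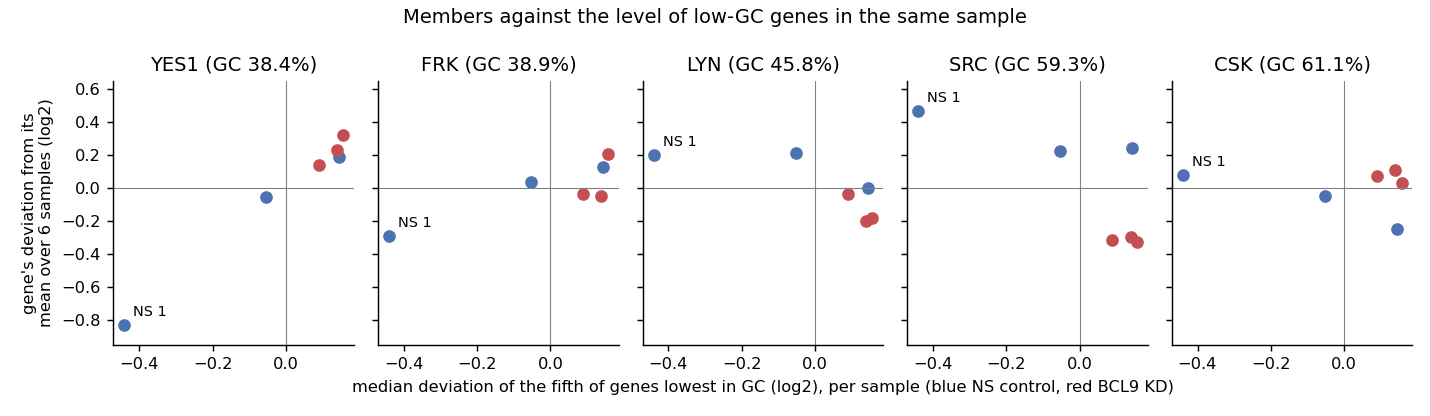
Each tested member's log2 deviation from its mean over 6 samples (vertical axis) against the median log2 deviation of the fifth of genes lowest in GC in the same sample (horizontal axis), for NS control (blue) and BCL9 KD (red), with the transcript GC content in the titles. NS control replicate 1 lies at −0.44 on the horizontal axis, where YES1 is at −0.83 and SRC at 0.47, and for SRC the other 2 NS control samples stay above the 3 BCL9 KD samples.

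The summed level of the 8 kinases did not separate the groups, with 33.1, 39.9 and 42.5 FPKM in the NS control samples and 40.7, 37.9 and 38.8 FPKM in the BCL9 KD samples. Its make-up differed more. SRC was 35.2%, 24.5% and 23.3% of the sum in the NS control samples and 16.0%, 17.3% and 17.2% in the BCL9 KD samples. The shares of SRC did not overlap, and the difference of the means was −10.8 percentage points, or −7.07 without NS control replicate 1. YES1 was 33.1%, 47.9% and 53.3% of the sum in NS control and 61.5%, 57.8% and 60.4% in BCL9 KD samples. Again the groups did not overlap, by a difference of 15.1 percentage points that fell to 9.29 without NS control replicate 1. Shares within a sum depend on each other, so the lower share of SRC is part of the higher share of YES1. LYN held 22.0% ± 4.29 (SD, n = 3) of the sum in NS control and 17.4% ± 1.67 in BCL9 KD samples, and FRK held 4.80% ± 0.316 and 5.07% ± 0.477, both with overlap.

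The level of CSK relative to the summed kinases was 1.16, 0.886 and 0.723 in the NS control samples and 0.919, 1.02 and 1.02 in the BCL9 KD samples, with overlap. Relative to SRC alone it was 3.30, 3.62 and 3.10 in NS control and 5.73, 5.87 and 5.91 in BCL9 KD samples. This second ratio did not overlap between the groups and had a mean of 3.34 ± 0.262 in NS control and 5.84 ± 0.0959 in BCL9 KD cells (SD, n = 3), a difference that carries the decrease of SRC. Without NS control replicate 1 the NS control mean was 3.36. These are ratios of mRNA levels and give no measure of kinase activity.

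**Figure D4:**
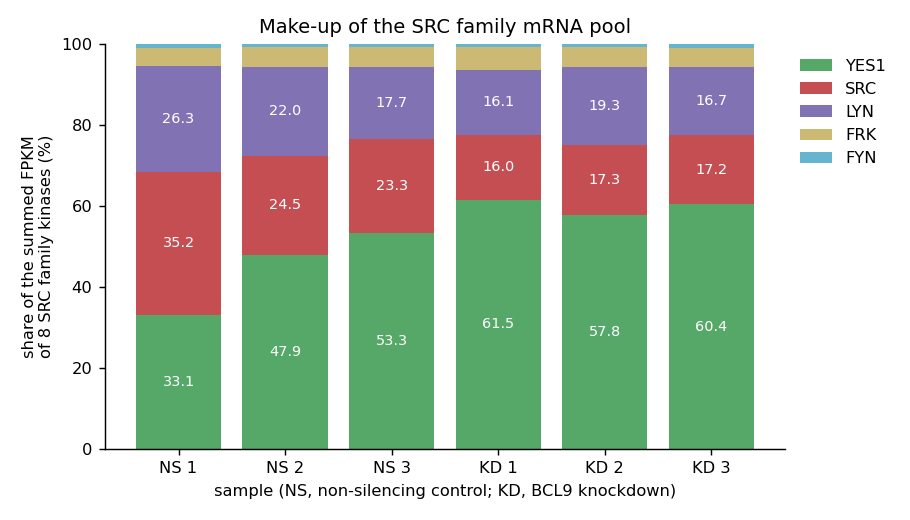
Share of each kinase in the summed FPKM of the 8 SRC family kinases (vertical axis, %), 1 bar per sample, where FYN is the thin top band and FGR, LCK and BLK are too low to see. SRC takes 23.3% to 35.2% of the sum in NS control and 16.0% to 17.3% in BCL9 KD samples.

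Around the family, 61 genes were listed by their role, and 54 of them were tested. In BCL9 KD cells 7 of the 54 were lower and 1 was higher at a limma adjusted p under 0.05, which is 14.8% beside the 5.87% of all genes tested. The lists were written with earlier results known, so this share is a description. The median log2 fold change of the 54 genes was −0.10, beside 0.04 over all genes tested. With the GC correction 14 of the 54 passed, beside 12.8% of all genes in that fit. Without NS control replicate 2, BCL9 KD replicate 2 or BCL9 KD replicate 3, 0 of them passed in limma, with 16 to 19 at an unadjusted p under 0.05. Of all genes tested, 12, 13 and 5 passed in these fits, in this order. Their share at an unadjusted p was not counted in these fits, so nothing is read from the 16 to 19. Without the mean-variance trend of the fit, VCL and ITGB3 still passed, while SH3PXD2B, RASA1, STAT3, TLN1, AXL and AFAP1 did not, with adjusted p from 0.0512 to 0.0642. The same 6 genes were lost with no filter on low values, at 0.0843 to 0.104.

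Of the 8 genes called, 6 were substrates or binding partners of SRC. Of 14 substrates, 4 were lower and 1 was higher past the threshold, beside 5.87% of all genes tested in either direction. Their median log2 fold change was −0.25, and 12 of 14 values were below 0, beside 44.6% of all genes tested. VCL, which encodes vinculin and links integrin adhesions to actin, was at 48.9, 52.2 and 46.3 FPKM in the NS control samples and at 33.2, 30.0 and 30.3 FPKM in the BCL9 KD samples (log2 fold change −0.65, SE 0.0764, limma adjusted p = 0.0122). TLN1, which encodes talin, the protein that binds integrin tails and activates them, was at 64.9, 56.5 and 48.7 FPKM and at 40.5, 35.4 and 36.2 FPKM in the same order (−0.59, limma adjusted p = 0.0387). In both genes every BCL9 KD sample was below every NS control sample, as in 16.4% of all genes tested. SH3PXD2B, which encodes the TKS4 scaffold of podosomes and invadopodia, fell by 0.67 on the log2 scale (limma adjusted p = 0.0302), from a mean of 10.5 to 6.38 FPKM. STAT3, a transcription factor activated by tyrosine phosphorylation, was at 39.0, 33.1 and 31.1 FPKM in NS control and at 24.5, 22.9 and 22.0 FPKM in BCL9 KD samples (−0.56, limma adjusted p = 0.0325), with no overlap between the groups. After the GC correction and without NS control replicate 1, in this order, VCL was at −0.65 and −0.65 on the log2 scale, TLN1 at −0.56 and −0.49, SH3PXD2B at −0.64 and −0.58 and STAT3 at −0.54 and −0.46, each with an adjusted p under 0.05.

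RASA1 went the other way. It encodes the p120 RasGAP protein, which switches RAS off, and was at 10.6, 15.6 and 19.2 FPKM in the NS control samples and at 35.7, 29.7 and 32.7 FPKM in the BCL9 KD samples. The log2 fold change was 1.12 (SE 0.2, limma adjusted p = 0.0328), and it was 0.90 without NS control replicate 1 and 0.96 after the GC correction (0.00634). The call was lost without BCL9 KD replicate 1 (adjusted p = 0.0623). Its transcripts have 41.3% GC, and NS control replicate 1 was its lowest sample. The substrates with the largest changes that did not pass were ARHGAP35, which encodes p190RhoGAP (−0.47, limma adjusted p = 0.0587), and ANXA2, which encodes annexin A2 (0.35, limma adjusted p = 0.0782). ARHGAP35 passed among protein-coding genes only, with voom, with the GC correction and without NS control replicate 3 or BCL9 KD replicate 1, and ANXA2 with quantile normalization and without BCL9 KD replicate 1. ANXA2 may share reads with its processed pseudogene ANXA2P2, which was at 4.46 to 8.57 FPKM.

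Among 10 tested scaffolds and binding partners, AFAP1, an actin-binding activator of SRC, was the 1 gene lower past the threshold, beside 2.91% of all genes tested, at 21.1, 21.6 and 18.9 FPKM in NS control and at 16.0, 15.6 and 14.7 FPKM in the BCL9 KD samples (−0.40, SE 0.0776, limma adjusted p = 0.0384). AFAP1 was at −0.38 on the log2 scale after the GC correction (adjusted p = 0.0201), −0.38 without NS control replicate 1 (0.0519) and −0.42 without BCL9 KD replicate 1 (0.0544), so that the call was lost in the last 2 fits. CDCP1, a transmembrane protein that SRC phosphorylates and that recruits it, differed by −0.45 on the log2 scale (limma adjusted p = 0.0533), and SRCIN1, an inhibitor of SRC that acts through CSK, had −0.42 (0.0743). Both had every BCL9 KD sample below every NS control sample, as did 16.4% of all genes tested. CDCP1 passed with a minimum mean of 1 FPKM, with quantile normalization, among protein-coding genes only, with voom, with the GC correction and without NS control replicate 3, and SRCIN1 among protein-coding genes only and with voom.

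Of 11 receptors that signal through SRC, 2 were lower past the threshold, beside 2.91% of all genes tested. ITGB3, the β3 integrin subunit whose tail binds SRC directly, fell from a mean of 13.9 to 6.99 FPKM (log2 fold change −0.95, limma adjusted p = 0.00942). AXL, a receptor tyrosine kinase of mesenchymal and basal-like cells, was at 61.0, 55.6 and 48.6 FPKM in the NS control samples and at 41.4, 36.5 and 35.2 FPKM in the BCL9 KD samples (−0.54, SE 0.105, limma adjusted p = 0.0387). AXL was at −0.50 after the GC correction (adjusted p = 0.0199) and at −0.46 without NS control replicate 1 (0.0519), and ITGB3 at −0.93 and −0.94. ITGB6 (0.54, limma adjusted p = 0.170) and ITGB1 (0.51, limma adjusted p = 0.0997) had the largest values among the 9 receptors that did not pass, with 42.0% and 40.5% GC in their transcripts. ITGB1 passed with the GC correction, and both passed without NS control replicate 3. ITGB1 may share reads with ITGB1P1, which was at 0.795 to 2.32 FPKM.

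Among the phosphatases, the ubiquitin ligase and lipidation genes, the CSK adaptors and the related kinases, limma called no gene in either direction. Of 8 tested tyrosine phosphatases, 0 were called. The groups did not overlap for 3 of the 8, beside 34.2% of all genes tested. PTPN12, which encodes PTP-PEST, differed by 0.38 on the log2 scale (limma adjusted p = 0.139), and PTPRJ, a receptor phosphatase, had −0.32 (limma adjusted p = 0.0937). Of 8 tested genes for ubiquitin ligases and for acylation or transport of the kinases, 0 were called, with CBLB, an E3 ligase, at 0.44 (limma adjusted p = 0.0948) and NMT1, the N-myristoyltransferase that adds the lipid tail, at −0.26 (limma adjusted p = 0.107). Of 4 CSK adaptors, 2 were tested and 0 were called. CAV1, which encodes caveolin-1, was at 65.4, 73.7 and 74.8 FPKM in NS control and at 85.0, 93.9 and 89.6 FPKM in the BCL9 KD samples (0.33, limma adjusted p = 0.0571), and DOK1 was at 0.19 (limma adjusted p = 0.340). PAG1, which encodes the membrane anchor of CSK, did not exceed 0.260 FPKM. Of the 4 related kinases, PTK6 was tested, with a difference of 0.10 on the log2 scale (limma adjusted p = 0.519). Over these 4 lists the limma fit gave 0 calls and 6 of 19 genes at an unadjusted p under 0.05, beside 5.87% of all genes called and 27.5% at an unadjusted p under 0.05, whereas other fits called some of them. These were CAV1, CBLB and PTPRJ with voom on the reads, CAV1 and CBLB among protein-coding genes only, CAV1 with the GC correction, and CAV1, NMT1 and PTPN12 without NS control replicate 3.

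**Figure D5:**
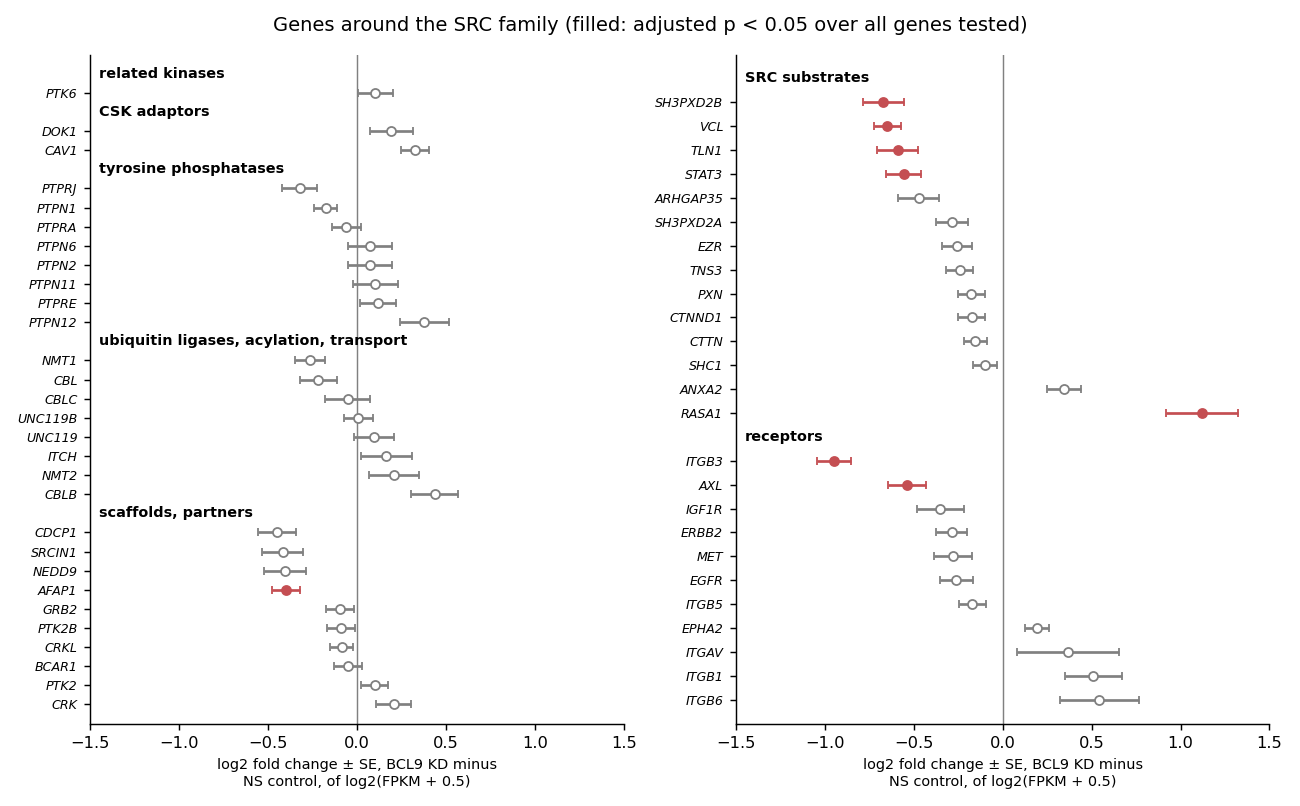
Log2 fold change ± SE of log2(FPKM + 0.5), BCL9 KD minus NS control (horizontal axis), for the 54 tested genes around the SRC family, grouped by role, with filled red points for a limma adjusted p under 0.05. The filled points are AFAP1, 5 SRC substrates and 2 receptors, and RASA1 at 1.12 is the one above 0.

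The genes most like SRC over the 6 samples were sought among the 6581 genes tested with a mean of at least 5 FPKM, by Pearson's r of log2(FPKM + 0.5). SPARC, a matrix glycoprotein, was the closest with r = 0.996, followed by NOP14, a ribosome biogenesis factor, with 0.995, SLC48A1, a heme transporter, with 0.995, IVD, an enzyme of leucine breakdown, with 0.993, and CANT1, a nucleotidase, with 0.992. SPARC was at a mean of 174.1 FPKM in NS control and 141.0 FPKM in BCL9 KD cells. Such values were common, since 669 genes had r above 0.9 with SRC, and they share the 2 groups and the libraries of the same 6 samples. Within the family, r with SRC was 0.86 for LYN, −0.43 for CSK and −0.76 for YES1, over the same 6 samples. The value for YES1 includes NS control replicate 1, where SRC was at 0.47 and YES1 at −0.83 from its mean on the log2 scale.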

How the data were processed

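RNA sequencing was analysed for 3 NS control and 3 BCL9 KD samples of DCIS.COM cells, each from its own flask. The authors used STAR to align the paired-end reads to hg38 and HTSeq 0.6.1 for counting, and deposited FPKM values, with the gene length in bases in another column. The read counts behind them were recovered as FPKM times gene length over 1 common step per sample. At a tolerance of 0.1 reads, 100% of values came out whole. Log2(FPKM + 0.5) values of the 13745 genes with a mean of at least 0.5 FPKM were fitted with limma 3.58.1 (trend, R 4.3.3), and p-values were adjusted by Benjamini-Hochberg over all of them. Scripts were tested on simulated data. GC content was known for 98.78% of the genes tested, from GRCh37 transcripts (GENCODE). Gene positions are those of the deposited table. Members and gene lists were chosen with earlier results of these data known. The rule for naming took all members, BCL9, each list's genes past the threshold and its 2 largest others, and the 5 genes most like SRC. YES1P1, ANXA2P2, ITGB1P1 and the markers named beside a result were added after their values were seen. The alternatives were other pseudocounts, filters, scalings and fits, voom on the reads, a replicate block and each sample left out. The GC correction was added after seeing the data. Same-numbered samples were not paired by the labels, and the correlations of their deviations were from −0.15 to −0.0029.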

Additional observations from a re-analysis of the deposited data

How the results depend on the processing

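The log2 fold change of SRC was between −0.67 and −0.55 in the 19 alternative fits, and its adjusted p was under 0.05 in 14 of them and 0.0508 with no filter on low values. LYN, YES1 and CSK kept their sign and did not pass in any of the 19. FRK was −0.17 with the GC correction, with and without the replicate block, and between −0.042 and 0.17 with 1 sample left out, with −0.000708 without BCL9 KD replicate 1 and the lowest without NS control replicate 1. The cause was not tested.

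Of all genes, 807 passed in the main setting, 142 with no filter, 332 without the trend, 1409 of protein-coding genes only, 1400 with voom on recovered reads, 1739 with the GC correction, 377 with the GC correction and replicate block and 5 to 1729 with 1 sample left out. Of the members, 1 passed, against 0 with no filter (2 at an unadjusted limma p under 0.05) and 0 to 1 with 1 sample left out (1 to 3 unadjusted). Of the pathway genes, 8 passed, against 2 with no filter, 2 without the trend, 14 of protein-coding genes only, 15 with voom, 14 with the GC correction and 0 to 17 with 1 sample left out (16 to 33 unadjusted). The low counts came without NS control replicate 2 or BCL9 KD replicate 2 or 3, and the high ones without NS control replicate 3. In the main setting 27.5% of all genes tested were at an unadjusted limma p under 0.05.

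With the replicate number as a block, limma called 0 genes in all (3235 at an unadjusted p under 0.05), 0 members (2 unadjusted) and 0 pathway genes (25 unadjusted), and SRC had an adjusted p of 0.0826. The labels did not pair the samples by number. Same-numbered samples had correlations of their deviations from −0.15 to −0.0029, and whether they were handled together was not tested. The level order had 8 separated neighbour pairs, or 8 to 9 with 1 sample left out, and the SRC share differed by −13.0 to −7.07 percentage points. The median of all genes moved from 0.04 to between −0.01 and 0.01 with the other scalings and the GC correction. With 3 samples a group, p-values measure the spread between flasks of cells, and FYN and FGR are limited by their read numbers.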
